A study of Mus musculus with 6 samples.

Results

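The proteasome genes described here are the rows of the deposited gene table whose symbol follows the pattern Psm, a letter from a to g, a number and at most 1 further letter. The pattern finds 49 of 56636 genes: subunits of the proteolytic core, the regulatory cap, the activators, an inhibitor and the assembly chaperones. The members were chosen by name and not by their values, though earlier results of these data were known by then. Of the 49, 47 averaged 1 TPM or more across all 6 libraries and were tested. The libraries come from RAW264.7, an established mouse macrophage-like cell line labelled as WT, given vehicle or 25-HC for 24 h, with 3 libraries per group. A full name or a dose of 25-HC is not stated in those labels. TPM is a transcript level scaled for transcript length and to the same total in every library, so levels can be compared between genes, while the depth behind a value is unknown. Whether the replicates were separate cultures is not stated, so p-values measure the spread between these samples only, and that spread may be technical. In bulk RNA of this kind a change in the number of cells and a change in RNA per cell cannot be told apart.

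The proteasome is the barrel-shaped protease that degrades ubiquitin-tagged proteins. Its 20S core is a stack of rings of alpha and beta subunits, and the catalytic sites lie on the beta subunits encoded by Psmb5, Psmb6 and Psmb7. The 19S cap, made of the ATPases of the Psmc genes and the non-ATPase subunits of the Psmd genes, binds ubiquitin chains, unfolds the substrate and feeds it into the core. Interferon and other inflammatory signals induce the beta subunits of Psmb8, Psmb9 and Psmb10, which replace Psmb5, Psmb6 and Psmb7 in newly built cores to form the immunoproteasome, and the activator subunits of Psme1 and Psme2, which form the PA28 ring. In macrophages these inducible subunits help to make peptides for presentation on MHC class I.

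The 3 libraries given 25-HC were close to each other and the 3 vehicle libraries were not. Genes at 1 TPM or more numbered 11971 to 12005 in the 25-HC libraries and 11994 in vehicle 3, against 11238 in vehicle 1 and 9492 in vehicle 2. The median log2(TPM + 1) difference over all 12092 tested genes was 0.52, and 0.013 after median-ratio rescaling, which divides each library by 1 factor (0.423 for vehicle 2, 0.967 to 1.32 for the others). Log2 differences below are 25-HC minus vehicle on the deposited values unless stated, with that shift not subtracted. Macrophage markers summed to 1587 to 2344 TPM in vehicle and 2309 to 2323 TPM in 25-HC. Of these 7 markers 4 separated upward and 1 downward as deposited, where 22.6% and 8.1% of all tested genes did, and 3 and 1 after median-ratio rescaling. The marker separated downward was Cd68 as deposited and Cd14 after rescaling. The largest log2 difference among them, 2.74, was that of Itgam (limma adjusted p = 0.389). Itgam was at 12.54, 0.53 and 50.95 TPM in vehicle 1, 2 and 3 against 69.36, 62.4 and 71.39 TPM in 25-HC. Against vehicle 3 alone its log2 difference was 0.40. Marker sums of neutrophils, lymphocytes, fibroblasts and epithelial cells were at most 2.57 TPM in any library, with Pdgfra at 0 throughout. The 5 dendritic cell markers summed to 16.2 to 33.1 TPM in vehicle and 33.9 to 36.6 TPM in 25-HC, nearly all of it Cd83, with Flt3 at most 0.02 TPM; the part of these shifts in the results below was not tested.

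Transcripts of the proteasome were abundant in every library and did not separate the groups in the gene-level test. The 49 genes together took 0.853% to 0.861% of all TPM in the 25-HC libraries, 0.904% in vehicle 1, 0.878% in vehicle 3 and 0.733% in vehicle 2. So the 25-HC libraries lay below vehicle 1 and 3 and above vehicle 2. None of the 47 tested members was called higher or lower by limma with Benjamini-Hochberg adjustment over all tested genes (smallest adjusted p = 0.389), and 0 had an unadjusted p under 0.05. Of all tested genes, 0.00827% were called higher and 0% lower, and at an unadjusted p under 0.05 the shares were 8.24% and 2.94%. The median log2 difference of the members was 0.13, below the 0.52 of all tested genes. It was -0.49 after median-ratio rescaling and -0.065 without vehicle 2, so its sign was not the same in these settings. The median of all tested genes was 0.013 and 0.13 there, above that of the members in both.

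Complete separation, with every 25-HC library on the same side of every vehicle library, was found for 6 members upward and 3 downward. Over all tested genes the shares were 22.6% and 8.1%. The members above were Psmb4, Psmb5, Psmb9, Psmc2, Psmc6 and Psme4, and those below were Psma3, Psmd5 and Psmg3. After median-ratio rescaling only Psmc6 and Psme4 were still above, while 12 members lay below, against 18.4% and 18.1% of all tested genes. Quantile normalization left 3 above and 4 below (18.6% and 17.3% of all genes), and length correction 2 above and 8 below (17.1% and 18.7%). Set against vehicle 3 alone, 16 members lay above and 25 below, where 28.5% and 45.7% of all genes did. In 29 of the 47 the 25-HC values lay wholly inside the range of the vehicle values. This was not counted over all tested genes, so it is a description and not a trait of the members.

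**Figure D1:**
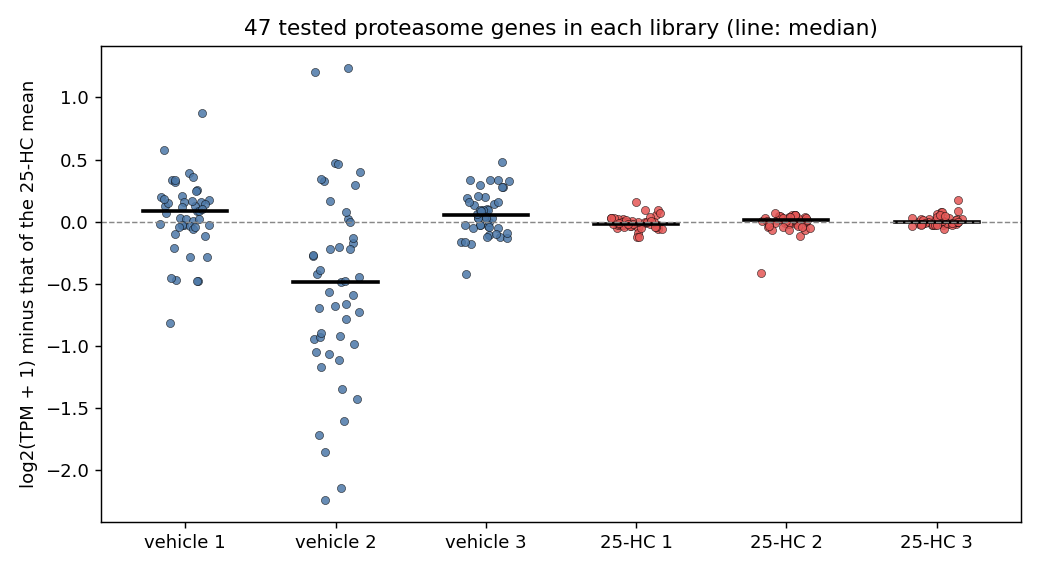
Each point is 1 of the 47 tested proteasome genes in 1 library, placed on the y axis by its log2(TPM + 1) minus that of its mean over the 25-HC libraries; black lines are medians. The medians are 0.089 in vehicle 1, -0.48 in vehicle 2 and 0.054 in vehicle 3, and the points of vehicle 2 are the most scattered, from -2.24 to 1.24.

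Vehicle 2 set much of the spread. It was the lowest of the 6 libraries for 34 of the 47 members and the highest for 8, which was not counted over all tested genes. The coefficient of variation of a member had a median of 26.9% among vehicle libraries and 2.66% among 25-HC libraries. In vehicle 2 the members went both down and up relative to the 25-HC mean, so dividing that library by 1 factor leaves them scattered. Across the 47 members these deviations had a Pearson r of 0.033 with the log2 length of the longest annotated transcript in vehicle 2 and -0.00010 in vehicle 1. This r is across genes that share a library, and is given as a description. The median of these lengths was 1907 bases for the members and 3025 bases for all tested genes with a length. An r within the members cannot show the part of that offset, which was not tested.

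The inducible beta subunits were not higher in 25-HC as a group. Psmb8 (ENSMUSG00000024338), which replaces Psmb5 at the chymotrypsin-like site, stood at 171, 154 and 149 TPM under vehicle (replicates 1, 2 and 3 in this order, as below) against 146, 150 and 160 TPM under 25-HC. The groups overlapped, and the log2 difference was -0.058 (SE 0.18, 95% interval -0.49 to 0.38, limma adjusted p = 0.822). Psmb9 (ENSMUSG00000096727), which replaces Psmb6, was at 16.5, 8.40 and 17.5 TPM under vehicle against 18.9, 19.8 and 19.1 TPM under 25-HC. All 3 treated libraries of Psmb9 were above all vehicle libraries, by 1.10-fold over vehicle 3, and the groups overlapped once rescaled by median ratios. The log2 difference was 0.49 (SE 0.34, 95% interval -0.34 to 1.31, limma adjusted p = 0.406). In the GENCODE M21 annotation an exon of Psmb9 overlaps Tap1 on the other strand by up to 212 bases. The strand setting of the counting is not given in the sources used here, so reads of the pair may not be fully separate. In all, 14 members have exons that overlap another gene there, 11 of them on the opposite strand, among them Psmb7 with Nek6 (a mean of 24.3 TPM here) and Psmb8 with Gm20496 (0.103 TPM). Psmb10 (ENSMUSG00000031897), which replaces Psmb7, was at 62.1, 124 and 51.1 TPM under vehicle against 54.1, 52.1 and 49.9 TPM under 25-HC. Vehicle 2 held the highest Psmb10 value, and vehicle 3 lay within the treated range. The Psmb10 log2 difference was -0.49 (SE 0.36, 95% interval -1.37 to 0.39, limma adjusted p = 0.417), and 0.024 against vehicle 3 alone.

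The constitutive partners of these subunits were at higher levels than the subunits that replace them, except in vehicle 2 for Psmb8 and Psmb5. Psmb5 (ENSMUSG00000022193), the chymotrypsin-like subunit of the standard core, was at 298, 110 and 351 TPM under vehicle against 361, 360 and 367 TPM under 25-HC. The treated libraries all lay above the vehicle libraries, by 1.43-fold over their mean and 1.03-fold over vehicle 3 (log2 difference 0.68, SE 0.44, 95% interval -0.39 to 1.76, limma adjusted p = 0.397). The groups of Psmb5 overlapped after median-ratio rescaling and stayed apart after quantile normalization and length correction. Psmb6 (ENSMUSG00000018286), the caspase-like subunit, was at 580, 488 and 506 TPM under vehicle against 559, 573 and 571 TPM under 25-HC. Psmb7 (ENSMUSG00000026750), the trypsin-like subunit, was at 407, 337 and 402 TPM under vehicle against 374, 392 and 395 TPM under 25-HC. Both overlapped between groups, with log2 differences of 0.12 for Psmb6 (SE 0.16, limma adjusted p = 0.603) and 0.024 for Psmb7 (SE 0.17, limma adjusted p = 0.922).

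**Figure D2:**
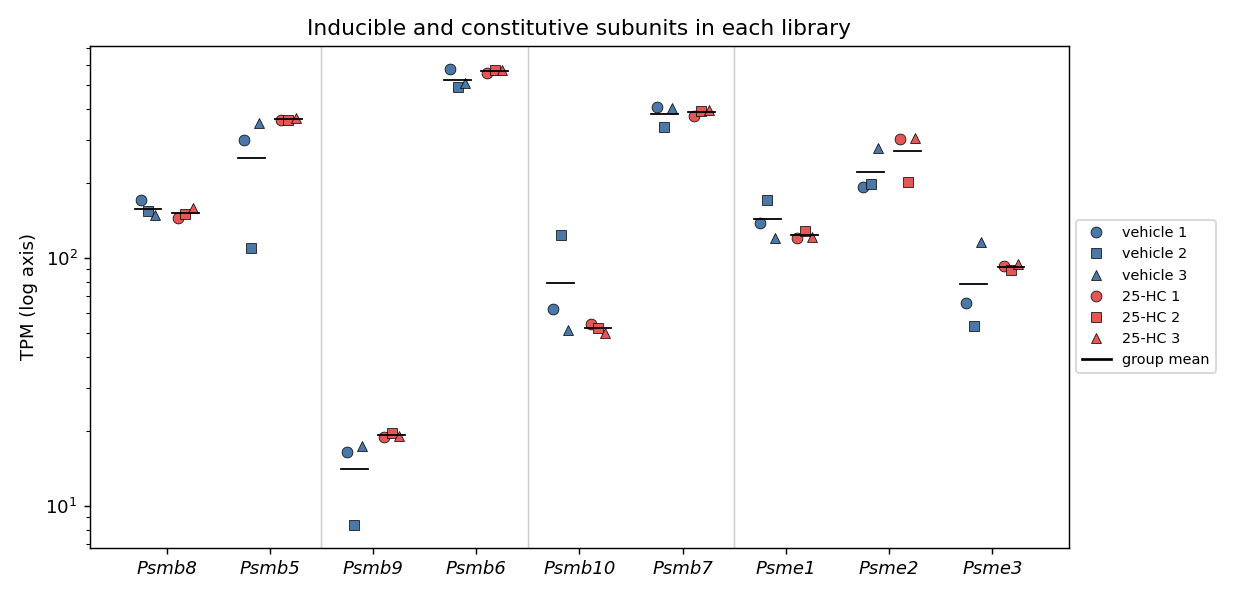
TPM on a log axis for each inducible beta subunit beside the constitutive subunit it replaces, and for the 3 PA28 genes; each symbol is 1 library and black lines are group means of 3 libraries. The 25-HC libraries form tight groups, and vehicle 2 (blue squares) is low for Psmb5 (110 TPM) and Psmb9 (8.40 TPM) and high for Psmb10 (124 TPM).

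Promoter sequence is shown for the exchanged pairs other than Psmb7, for which none is printed, because interferon acts on the inducible subunits through short DNA elements. Of the 49 members, 41 had an entry in the RefSeq promoter table (build GRCm38.p6, not the GRCm39 build of the deposited table), with 44 start sites in all. In the 250 bases before the start site 3 motifs were searched on both strands: the core of the interferon-stimulated response element (GAAANNGAAA), the interferon-gamma-activated GAS element (TTCNNNGAA) and the core of the antioxidant response element (TGACNNNGC). The 120 bases before the annotated start are printed 5′ to 3′ on the gene's strand, with motif matches in capitals.
Psmb8, chr17:34198075-34198194, plus strand: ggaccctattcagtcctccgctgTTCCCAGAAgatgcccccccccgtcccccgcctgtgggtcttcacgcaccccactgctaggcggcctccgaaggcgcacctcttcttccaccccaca
Psmb5, chr14:54617996-54618115, minus strand: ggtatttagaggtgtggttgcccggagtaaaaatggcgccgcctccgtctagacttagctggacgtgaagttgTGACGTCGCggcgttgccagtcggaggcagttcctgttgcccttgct
Psmb9, chr17:34187331-34187450, minus strand: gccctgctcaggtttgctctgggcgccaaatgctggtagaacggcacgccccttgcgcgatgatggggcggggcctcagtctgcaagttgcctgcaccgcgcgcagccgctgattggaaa
Psmb6, chr11:70525237-70525356, plus strand: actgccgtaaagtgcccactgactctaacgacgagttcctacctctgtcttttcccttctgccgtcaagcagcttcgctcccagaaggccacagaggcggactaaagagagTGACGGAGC
Psmb10, chr8:105938393-105938512, minus strand: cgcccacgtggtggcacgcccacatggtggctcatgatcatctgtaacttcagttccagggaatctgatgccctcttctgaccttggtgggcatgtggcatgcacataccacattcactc
The GAS match of Psmb8 lies 97 to 89 bases before its start, and the matches of Psmb5 and Psmb6 to TGACNNNGC lie 47 to 39 and 9 to 1 bases before theirs. The windows of Psmb9 and Psmb10 held none of the 3 motifs, which says only that these letters are not there. Of all 32851 promoters listed there, 2.98% held GAAANNGAAA, 7.02% TTCNNNGAA and 10.2% TGACNNNGC, and of the 44 member promoters 3, 2 and 5 did. A match is a description of the sequence and not a bound site.

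The ratio of an inducible to a constitutive subunit within a library does not depend on any factor common to that library. The ratio of Psmb8 to Psmb5 was 0.574, 1.41 and 0.425 in vehicle 1, 2 and 3 and 0.404, 0.417 and 0.435 in 25-HC. Vehicle 3 lay within the treated range and vehicle 2 stood far above all others. The log2 ratio differed by -0.74 between groups, or -0.24 without vehicle 2 (two-sided exact permutation test, p = 0.2, adjusted p = 0.5 over 5 ratios). The ratio of Psmb9 to Psmb6 was 0.0284, 0.0172 and 0.0345 in vehicle and 0.0339, 0.0345 and 0.0335 in 25-HC. Vehicle 3 held the highest value of this ratio and the difference in log2 ratio was 0.41 (exact permutation p = 0.4, adjusted p = 0.5). It was 0.12 without vehicle 2, with a turned sign after quantile normalization (-0.15) and after length correction (-0.13). The ratio of Psmb10 to Psmb7 was 0.153, 0.369 and 0.127 in vehicle and 0.145, 0.133 and 0.126 in 25-HC. Its log2 ratio differed by -0.52 (exact permutation p = 0.3, adjusted p = 0.5), and by -0.052 without vehicle 2. With 3 libraries against 3 this test cannot give a p below 0.1. Together Psmb8, Psmb9 and Psmb10 made up 14.3% to 14.6% of the TPM of the 3 exchanged pairs in the 25-HC libraries. The share was 16.3% in vehicle 1, 23.5% in vehicle 2 and 14.7% in vehicle 3. All treated libraries were below all vehicle libraries, but the highest, at 14.65%, was barely under the 14.74% of vehicle 3. This pooled share was not a planned result and was not tested. It was not computed after quantile normalization or length correction.

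**Figure D3:**
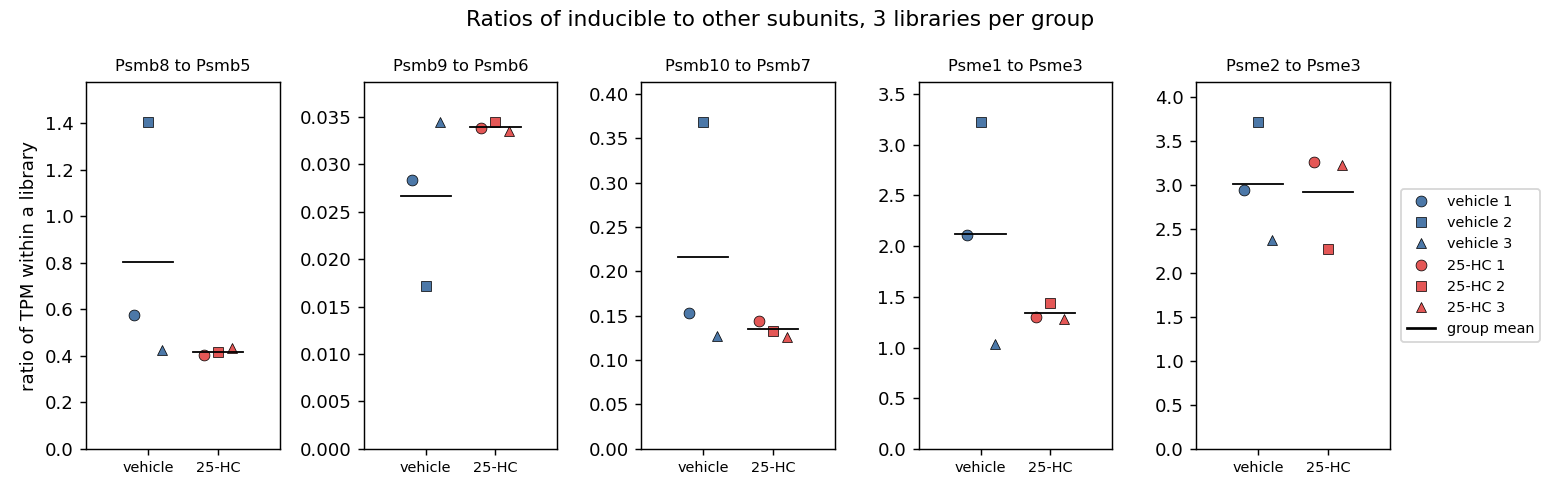
Ratios of TPM within a library for 5 pairs of subunits, on linear axes from 0; each symbol is 1 library and black lines are means of 3. Vehicle 2 stands above the other vehicle libraries in 4 panels and below them for Psmb9 to Psmb6, and the 25-HC libraries overlap with vehicle in every panel.

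As deposited the log2 difference was negative for the PA28 gene Psme1 and positive for Psme2 and Psme3. After median-ratio rescaling all were negative, at -0.83, -0.36 and -0.31. A difference between these genes was not tested. Psme1 (ENSMUSG00000022216), the alpha subunit of the interferon-inducible ring, was at 139, 172 and 120 TPM under vehicle against 121, 128 and 122 TPM under 25-HC. The groups overlapped (log2 difference -0.20, SE 0.21, 95% interval -0.71 to 0.31, limma adjusted p = 0.52). Psme2 (ENSMUSG00000079197), the beta subunit, was at 194, 198 and 277 TPM under vehicle against 303, 203 and 306 TPM under 25-HC. Here 25-HC 2 stood apart from the other treated libraries and lay in the vehicle range, and the coefficient of variation of 21.6% was the highest of any tested member in 25-HC. The log2 difference of Psme2 was 0.27 (SE 0.26, 95% interval -0.35 to 0.90, limma adjusted p = 0.485). Psme3, which forms the nuclear PA28 gamma ring, was at 65.9, 53.3 and 116 TPM under vehicle against 92.7, 89.4 and 94.6 TPM under 25-HC. Vehicle 3 was the highest library for Psme3. The ratio of Psme1 to Psme3 was 2.11, 3.23 and 1.03 in vehicle and 1.30, 1.44 and 1.29 in 25-HC (log2 ratio difference -0.52, exact permutation p = 0.4, adjusted p = 0.5). It was -0.14 without vehicle 2 and -0.96 without vehicle 3. The ratio of Psme2 to Psme3 was 2.95, 3.73 and 2.38 in vehicle and 3.27, 2.27 and 3.24 in 25-HC (log2 ratio difference -0.040, exact permutation p = 0.9, adjusted p = 0.9). Without vehicle 2 or without 25-HC 2 the sign of this last difference turned, to 0.12 and 0.13.

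Psme2b, a near copy of Psme2, was listed at 0 throughout vehicle and reached 1.01, 0.26 and 0.51 TPM under 25-HC, below the filter. The longest open reading frames of both genes have 720 bases and differ at 5, so reads can be assigned to either. The stretch from coding base 454 to 543 in GENCODE M21 is shown because it holds 3 of those differences, in capitals.
Psme2: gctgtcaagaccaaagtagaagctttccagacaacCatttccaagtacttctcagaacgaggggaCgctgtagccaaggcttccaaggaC
Psme2b: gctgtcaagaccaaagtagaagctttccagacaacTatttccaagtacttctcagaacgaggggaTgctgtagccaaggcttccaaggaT
Of the 50-base words in the Psme2b transcript 68.7% also occur in a Psme2 transcript. Adding Psme2b to Psme2 left the ratio to Psme3 in 25-HC 2 at 2.28, against 2.27 without it. Psme4, which encodes the large activator PA200, was low, at 1.31, 0.41 and 1.36 TPM under vehicle against 1.91, 2.24 and 2.35 TPM under 25-HC. All treated libraries were above vehicle 3, by 1.59-fold (log2 difference 0.68, SE 0.30, 95% interval -0.044 to 1.40, limma adjusted p = 0.389), as they were after median-ratio rescaling, while values overlapped after quantile normalization and length correction. Psmf1, the proteasome inhibitor PI31, overlapped between groups, with 17.7 ± 5.74 TPM under vehicle and 17.9 ± 0.467 TPM under 25-HC (SD, n = 3 each).

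As deposited the alpha ring showed no common direction. Its 7 genes had a median log2 difference of -0.018, with 3 higher and 4 lower by mean. That median was -0.65 after median-ratio rescaling and -0.20 without vehicle 2, where the median of all tested members was -0.49 and -0.065. Each of the 7 had a negative log2 difference in both of these settings. Psma3 was at 162, 251 and 120 TPM under vehicle against 116, 99.8 and 109 TPM under 25-HC. All treated libraries lay below vehicle, the nearest by a few TPM (log2 difference -0.65, SE 0.30, limma adjusted p = 0.389). Psma1 went the other way by mean, from 149, 41.1 and 173 TPM in vehicle to 151, 150 and 154 TPM in 25-HC, with vehicle 3 above all treated libraries. Psma2, Psma4, Psma5, Psma6 and Psma7 had log2 differences from -0.087 to 0.087. Psma8, known for its expression in the testis, was at 40.3, 14.3 and 49.6 TPM under vehicle against 37.7, 40.9 and 41.9 TPM under 25-HC. Of the 50-base words in its transcripts 0% occur in Psma7 transcripts, the coding sequences being 74.2% identical. Psmb11, the thymus-specific beta subunit, was at most 0.03 TPM in any library and was not tested.

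In the remaining beta ring, levels were high and groups close. Psmb3, a structural subunit, was the most abundant member in 25-HC at 630 ± 9.84 TPM, against 679 ± 106 TPM in vehicle (SD, n = 3 each). Psmb4 was at 549, 425 and 494 TPM under vehicle against 551, 564 and 557 TPM under 25-HC. The treated libraries were above all vehicle libraries, by 2.22 TPM at the narrowest, and overlapped after median-ratio rescaling. Psmb2 had the lowest log2 difference of the 7 constitutive beta genes at -0.14 (450 ± 50.4 TPM under vehicle and 407 ± 6.97 TPM under 25-HC, SD, n = 3 each). The 14 constitutive core genes, whose products each occupy 1 place per ring, spanned 7.50-fold in 25-HC, from 84.03 TPM for Psma2 to 630 TPM for Psmb3.

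**Figure D4:**
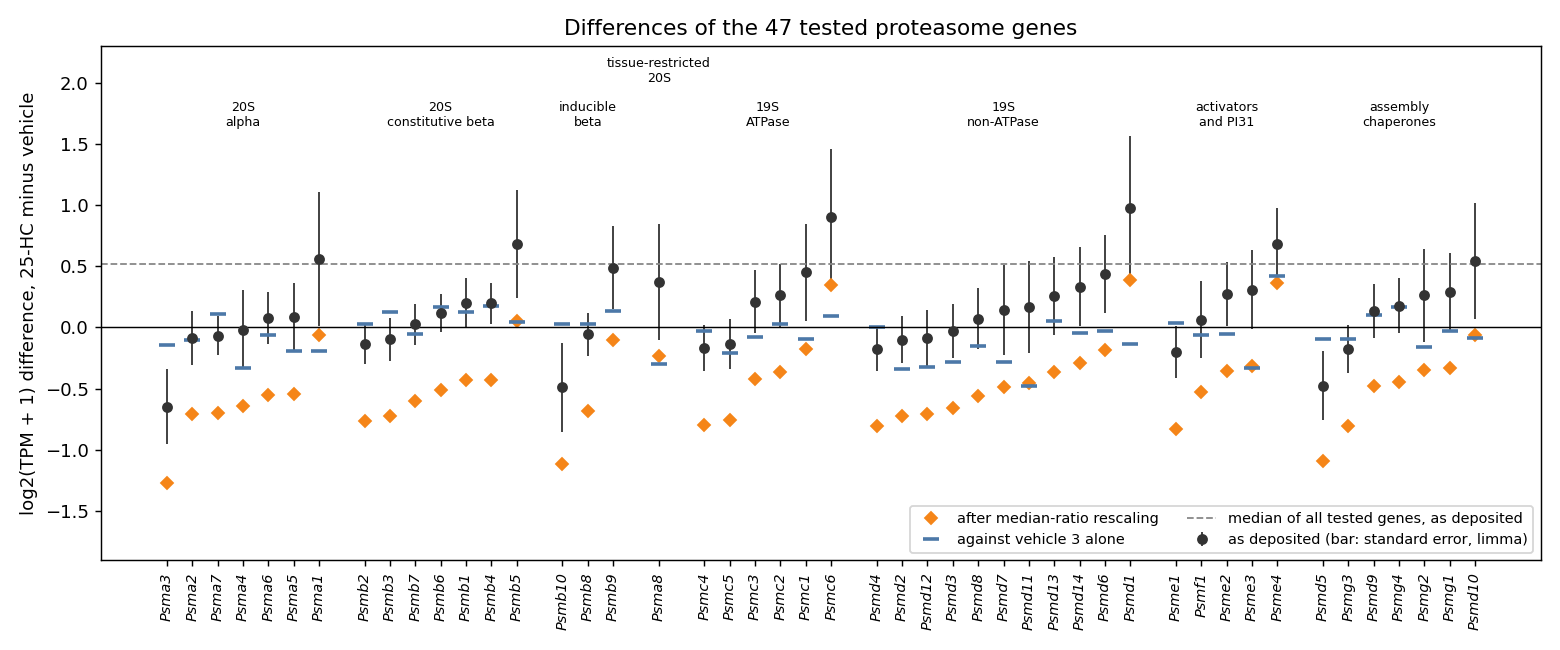
Log2(TPM + 1) differences of the 47 tested proteasome genes, 25-HC minus vehicle, grouped by role; black points are the deposited values with the standard error from limma, orange diamonds follow median-ratio rescaling, blue bars are against vehicle 3 alone and the dashed line is the median of all tested genes. Members range from -0.65 (Psma3) to 0.97 (Psmd1) as deposited, and rescaling lowers every point.

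The ATPases of the 19S base had a median of 0.23 in log2 difference (6 genes), 4 higher and 2 lower by mean. Psmc6, the least abundant of them, was at 13.9, 3.66 and 18.3 TPM under vehicle against 20.9, 18.7 and 19.1 TPM under 25-HC. Its groups did not overlap as deposited, after median-ratio rescaling, after quantile normalization or after length correction, though 25-HC 2 was only 0.41 TPM above vehicle 3 (log2 difference 0.90, SE 0.56, limma adjusted p = 0.394). Psmc2 was separated as deposited, at 99.1, 60.6 and 98.9 TPM under vehicle against 99.9, 103 and 99.7 TPM under 25-HC, and overlapped after rescaling. At the other end Psmc4 was at 159, 185 and 149 TPM under vehicle against 141, 150 and 145 TPM under 25-HC.

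The 11 non-ATPase subunits of the cap had a median log2 difference of 0.14, and 0 separated in either direction as deposited. Psmd1, a large scaffold subunit of the base, showed the highest log2 difference of all members at 0.97 (SE 0.59, limma adjusted p = 0.394). It was at 18.8, 6.40 and 37.4 TPM under vehicle against 34.3, 34.1 and 33.4 TPM under 25-HC, so the treated libraries were below vehicle 3. Psmd4, a ubiquitin receptor, was at 374, 447 and 337 TPM under vehicle against 338, 340 and 337 TPM under 25-HC. Psmd11, a scaffold subunit of the lid of the cap, was at 89.9, 48.4 and 130 TPM under vehicle against 92.6, 92.3 and 93.5 TPM under 25-HC, within the vehicle range. After median-ratio rescaling 6 of the 11 lay wholly below vehicle, as did 18.1% of all tested genes. Against vehicle 3 alone, an alternative chosen after the values were seen, 9 of the 11 were lower by mean, Psmd11 most at 0.716-fold. The share of all tested genes lower by mean against vehicle 3 was not counted, but their median log2 difference was -0.071. A limma fit with that lone library takes its spread from the 25-HC libraries only and holds no error for vehicle, so nothing is read from its calls (8 members lower and 1 higher, against 6.33% and 4.52% of all genes).

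Assembly chaperones, which build the core and the base and leave the finished particle, had a median of 0.18 in log2 difference (7 genes). Psmd5, which guards the ATPase Psmc2 during base assembly, was at 43.7, 32.7 and 25.0 TPM under vehicle against 23.2, 22.7 and 24.4 TPM under 25-HC. Every treated library was below vehicle 3, the nearest by less than 1 TPM, and the groups overlapped after median-ratio rescaling (log2 difference -0.48, SE 0.28, limma adjusted p = 0.392). Psmg3, of a chaperone pair for the alpha ring, was at 103, 84.7 and 85.9 TPM under vehicle against 79.3, 82.5 and 79.0 TPM under 25-HC. Psmd10, also called gankyrin, was at 39.8, 13.6 and 46.1 TPM under vehicle against 42.8, 42.3 and 44.8 TPM under 25-HC, with overlap. Psmd9, Psmg1, Psmg2 and Psmg4 had log2 differences from 0.13 to 0.29 and overlapped.

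Set against the geometric mean of the 47 members in the same library, which was 116, 76.2 and 118 TPM under vehicle against 112, 113 and 114 TPM under 25-HC, 6 members were higher in every treated library than in every vehicle library. These were Psmb5, Psmb9, Psmc2, Psmc6, Psmd6 and Psme4, and Psma2, Psmc5, Psmd3 and Psmd12 were lower. Over all tested genes the same rule gave 25.3% and 10.1%. Within the particle, Psmb5 stood 1.36, 0.53 and 1.58 above this mean on the log2 scale in vehicle and 1.68, 1.67 and 1.69 in 25-HC.

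Partners of the proteasome that the name pattern leaves out were read from a list of 27 genes, 26 of which were in the table under these symbols and tested. None was called by limma, and 2 had an unadjusted p under 0.05. Complete separation was found for 4 upward and 3 downward, against 22.6% and 8.1% of all tested genes. The median log2 difference was 0.71, or 0.17 with median-ratio rescaling and -0.065 when set against vehicle 3 alone. Over all tested genes these medians were 0.52, 0.013 and -0.071. Nfe2l1, the transcription factor that raises proteasome genes when proteasome activity is short, had the largest difference of the list. It was at 28.5, 5.82 and 60.5 TPM under vehicle against 109, 105 and 111 TPM under 25-HC, above vehicle 3 in all treated libraries and also separated after median-ratio rescaling (log2 difference 2.24, SE 0.77, limma adjusted p = 0.389). Against vehicle 3 alone the Nfe2l1 log2 difference was 0.83. Ddi2, the protease that activates the Nfe2l1 protein, was at 2.94, 0.38 and 11.6 TPM under vehicle against 10.97, 10.2 and 10.7 TPM under 25-HC, with vehicle 3 above all treated libraries. At the low end was Uchl5, a deubiquitinase of the cap, at 63.2, 51.9 and 49.7 TPM under vehicle against 40.4, 37.9 and 36.5 TPM under 25-HC. Uchl5 was separated downward as deposited and after rescaling (log2 difference -0.50, limma adjusted p = 0.389).

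Usp14 and Ubb were picked out after their values were seen. Usp14, another deubiquitinase of the cap, was at 25.5, 8.21 and 33.3 TPM under vehicle against 48.0, 42.8 and 42.7 TPM under 25-HC, separated upward as deposited and after rescaling. Ubb, which encodes a chain of ubiquitin units, was at 1282, 504 and 1152 TPM under vehicle against 1607, 1664 and 1605 TPM under 25-HC, and overlapped after rescaling. Adjusted p for both genes was 0.389 by limma.

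Class I presentation genes and factors known to regulate the inducible subunits, 9 in all, had a median log2 difference of 1.05, and 8 of them separated upward as deposited (22.6% of all tested genes did) and 5 after median-ratio rescaling (18.4%). None was called by limma, and 3 had an unadjusted p under 0.05, as did 8.24% of all tested genes upward and 2.94% downward. This list, like that of the partners, was drawn up with earlier results of these data known. Erap1, which trims peptides in the endoplasmic reticulum, was at 0.62, 0.33 and 1.74 TPM under vehicle against 5.11, 2.62 and 2.92 TPM under 25-HC. Irf1, an interferon-responsive factor that acts on Psmb8 and Psmb9, was at 3.98, 0.52 and 6.82 TPM under vehicle against 6.93, 7.64 and 9.30 TPM under 25-HC, where the lowest treated library was close to vehicle 3. The smallest differences of this list were those of Irf8 (0.50) and Tap2 (0.57), and both overlapped after rescaling. B2m and Nlrc5 were picked out after their values were seen. B2m, the light chain of MHC class I, was at 533, 188 and 561 TPM under vehicle against 840, 880 and 842 TPM under 25-HC, above vehicle 3 in all treated libraries. Nlrc5, the class I transactivator, was at 1.38, 0.90 and 3.55 TPM under vehicle against 4.21, 6.34 and 4.77 TPM under 25-HC. Tap1, the peptide transporter gene beside Psmb9, overlapped, at 8.13, 2.13 and 17.6 TPM under vehicle against 13.9, 16.5 and 14.7 TPM under 25-HC. With vehicle 3 as the only control the list had a median of 0.19, against -0.071 over all tested genes. On that footing the log2 differences of Psmb8, Psmb9, Psmb10, Psme1 and Psme2 were 0.025, 0.13, 0.024, 0.039 and -0.056. The difference between these 9 genes and the inducible subunits was not tested.

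**Figure D5:**
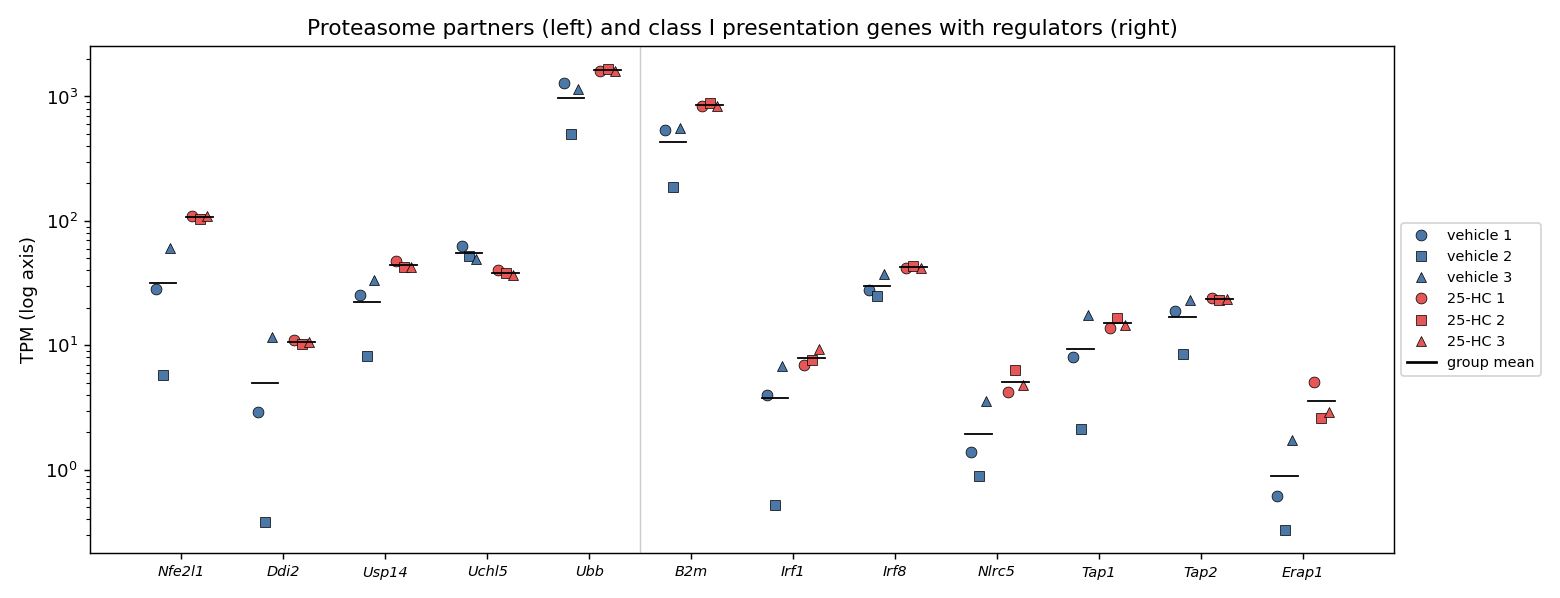
TPM on a log axis for 5 proteasome partners (left of the grey line) and 7 class I presentation genes and regulators (right); each symbol is 1 library and black lines are group means of 3 libraries. Nfe2l1 reaches 105 to 111 TPM in 25-HC against at most 60.5 TPM in vehicle, and B2m 840 to 880 TPM against at most 561 TPM, while Ddi2 and Tap1 overlap between groups.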

How the data were processed

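Total RNA of RAW264.7 cells was sequenced in 6 libraries made with the TruSeq RNA kit, per the labels' protocols. The authors deposited TPM per gene and library. HISAT2, StringTie, RSEM and build GRCm39 are named in the submitters' processing notes, without versions or order; neither annotation release nor strandedness is given in the sources used here. Groups and replicate numbers came from sample titles. Of identifiers sharing a symbol, only the most abundant kept it.

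The 12092 genes averaging 1 TPM or more entered a limma fit of log2(TPM + 1) (limma 3.58.1, R 4.3.3, eBayes with a trend, two-sided, Benjamini-Hochberg adjustment, threshold 0.05). Log2 differences on that scale understate changes of low genes; folds are ratios of mean TPM. Ratios between subunits were compared by exact permutation (scipy 1.17.1).

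The members, lists and tests were chosen with earlier results of these data known. Genes named by rule are the 8 subunits of the exchanged pairs and PA28, Psme3, untested members and the extremes of each role. The rule also takes the 2 largest and smallest differences of each list. A few listed genes are counted but not reported singly here. Other genes, such as Psmb3, Psmb4, Psmc2, Psmd11, Psmg3, Psmf1 and Tap1, are named outside this rule. Alternatives were pseudocounts 0.1 and 5, no filter or 5 TPM, median-ratio rescaling, quantile normalization, a loess length correction (span 0.75, GENCODE M21 lengths), no trend, robust moderation, leaving out each library, and a replicate block. Vehicle 3 alone, and Psme2 with Psme2b, were added after seeing the data.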

Additional observations from a re-analysis of the deposited data

How the results depend on the processing

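No member was called by limma under any planned setting (smallest adjusted p of a member 0.0682, without vehicle 3). Against vehicle 3 alone, added after seeing the data, 9 were, in a fit whose spread comes only from the 25-HC libraries (median coefficient of variation 2.66%, against 26.9% in vehicle), so these calls hold no error for vehicle. The number of all genes called was 1 as deposited. It was 0 with a pseudocount of 5, with no filter, with a filter of 5 TPM and with the replicate block, 2 after median-ratio rescaling, 5 after quantile normalization, 19 after length correction (11132 genes) and 1312 against vehicle 3 alone. Leaving out 1 library gave 0 to 722 called genes, with 722 without vehicle 3 and 13 without vehicle 2. The members' median log2 difference of 0.13 turned to -0.49 after median-ratio rescaling, -0.071 after quantile normalization, -0.16 after length correction and -0.056 against vehicle 3 alone, and ran from -0.065 (without vehicle 2) to 0.22 over the libraries left out. Of the members, 6 separated upward as deposited, 2 after median-ratio rescaling, 3 after quantile normalization, 2 after length correction and 16 against vehicle 3 alone, and from 6 to 15 with a library left out (11 without vehicle 1, 15 without vehicle 3). Downward separation, 3 as deposited, went to 15 without vehicle 2 and 10 without vehicle 3. The share of all tested genes that separated was not counted with a library left out. Smaller groups separate more easily, so nothing is read about the members from the counts with a library left out. The difference in the log2 ratio of Psmb9 to Psmb6 turned to -0.15 after quantile normalization and -0.13 after length correction. That of Psme2 to Psme3 turned to 0.13 and 0.43 in these settings, and ran from -0.20 to 0.13 over the libraries left out. The other 3 ratios kept their sign in all 11 settings. The causes of these changes were not tested. The deviations of same-numbered libraries from their group means had an r of -0.013, 0.056 and 0.030 across genes. For differently numbered libraries r ran from -0.079 to 0.053. Whether the numbers pair the libraries cannot be told from these values, all of them small. The replicate block left 0 members called. With equal groups a block cannot move a difference of means (0.13 for the members, -0.74 for the ratio of Psmb8 to Psmb5). The exact p of that ratio went from 0.2 by permutation to 0.5 by sign flips within replicate numbers. The sign-flip test cannot give a p below 0.25 here, so these p-values are not on the same footing. TPM keeps no depth, so no limit from counting could be set.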
